A study of Mus musculus with 15 samples.

Results

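The 9 genes described here, Col15a1, Ackr1, Vwa1, Ebf3, Selp, Vcam1, Vwf, Slc6a2 and Nr2f2, are used as markers of venous endothelium in the lung, either of the pulmonary veins or of the systemic (bronchial) veins. They were chosen by symbol out of the 33340 genes counted, with their values in CPM (counts scaled to a common library total) in all 15 whole-lung libraries already known, so their values are given as a description: whether each passed the thresholds used for all genes is stated, but no p-value is printed for them and no test of them is offered. The libraries came from C57BL/6 mice, which were male and about 70 to 84 days old when bleomycin was given according to the methods of the study. In the 3 treated groups bleomycin, which injures the lung epithelium and endothelium and leads to fibrosis, was instilled into the trachea at 5 U/kg. Lungs were taken at day 7 (4 libraries), day 14 (4 libraries) and day 21 (3 libraries), and 4 libraries labelled day 0 and control served as the untreated group. One day 0 library, replicate 4, carries bleomycin in its treatment label although its title names it a control, and it was kept in the day 0 group by its title. No allele or transgene is named in these labels. The study speaks of biological replicates for days 0, 7 and 14, but the labels do not say that each library is a separate animal, so p-values given for other genes measure only the spread between these libraries. The question is how the levels of venous endothelial genes in the whole lung differ between the days after bleomycin.

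Blood returns from the lung through pulmonary veins, whereas the airways and large vessels drain through bronchial veins, which belong to the systemic circulation. Venous endothelium differs from capillary and arterial endothelium in its transcription factors, its basement membrane and its equipment for letting leukocytes out of the blood. Nr2f2 (COUP-TFII) holds venous identity by restraining Notch signalling, and Ebf3 is an early B cell factor of the same family as Ebf1. Selp (P-selectin) and Vcam1 catch rolling leukocytes, Vwf is the multimeric glycoprotein stored with P-selectin in Weibel-Palade bodies, and Ackr1 is an atypical receptor that binds chemokines and carries them across venules. Col15a1 encodes the core of a basement membrane collagen and Vwa1 a matrix protein of the perlecan and collagen VI network, and both are markers of systemic venous endothelium in the lung. Slc6a2 is the noradrenaline transporter, with which lung endothelium clears noradrenaline from the blood. Some of these genes are also read in other cells: Vwf and Selp in platelets and megakaryocytes, Vcam1 in fibroblasts, mesothelium and some macrophages, and Col15a1 in fibroblasts and muscle.

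Col15a1, Ackr1, Vwa1 and Selp were higher than at day 0 at each of the 3 later days. At day 21 their log2 fold changes were 3.29, 3.92, 1.76 and 1.82. At day 7 Col15a1 alone of these genes still passed the thresholds with the mitochondrial share of counts as a covariate. Ackr1 passed the filter on low counts through the later days, so its direction supports nothing. Vwf was higher at day 21, and Nr2f2 stayed near its day 0 level. At day 7 Vcam1 passed the thresholds as higher and Slc6a2 as lower, calls lost in 11 and 9 of 17 alternative analyses. Vcam1 was near its day 0 level at days 14 and 21, though its difference from day 7 did not pass at either day. Ebf3 was read by too few counts to be followed against day 0. In whole lung, fewer or more cells of a type and less or more RNA per cell cannot be told apart.

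The windows before the starts of Selp and Col15a1, both higher at every later day, and of Nr2f2, near its day 0 level throughout, are printed so that the promoters of genes that rose together can be read beside that of a gene that did not. Each line holds the 250 bases before the RefSeq start in GRCm38.p6, 5′ to 3′ on the strand of the gene, with motif matches in capitals. The window of Selp is chr1:164115014-164115263 (plus strand), that of Col15a1 is chr4:47207762-47208011 (plus strand) and that of Nr2f2 is chr7:70366747-70366996 (minus strand). The Nr2f2 window lies wholly within an exon of B130024G19Rik, a gene on the opposite strand, and the other windows printed overlap no exon of GENCODE M21.
Selp: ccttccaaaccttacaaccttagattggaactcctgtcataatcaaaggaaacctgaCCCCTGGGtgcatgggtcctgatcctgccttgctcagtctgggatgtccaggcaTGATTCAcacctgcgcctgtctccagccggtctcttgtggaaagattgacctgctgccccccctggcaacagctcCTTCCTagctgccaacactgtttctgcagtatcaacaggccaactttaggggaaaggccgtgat
Col15a1: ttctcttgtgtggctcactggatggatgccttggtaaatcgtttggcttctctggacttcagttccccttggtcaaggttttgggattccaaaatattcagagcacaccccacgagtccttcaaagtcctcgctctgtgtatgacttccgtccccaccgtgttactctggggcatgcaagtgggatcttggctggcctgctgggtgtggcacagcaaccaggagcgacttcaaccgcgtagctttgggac
Nr2f2: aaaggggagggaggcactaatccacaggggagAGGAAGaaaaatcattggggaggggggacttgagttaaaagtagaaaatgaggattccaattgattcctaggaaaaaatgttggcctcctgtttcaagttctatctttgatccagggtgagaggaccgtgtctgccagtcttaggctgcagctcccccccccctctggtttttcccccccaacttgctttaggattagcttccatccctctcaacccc

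In the Selp window the capitals mark, in order, an EBF motif 193 to 186 bases before the start, an AP-1 motif 139 to 133 bases before it and an ETS motif, on the opposite strand, 64 to 59 bases before it. The Col15a1 window holds none of the motifs searched, and the Nr2f2 window holds an ETS motif 218 to 213 bases before its start. Motifs were searched on both strands and set against all 32851 mouse promoters of the same length. The AP-1 motif, with the letters TGANTCA, occurs in 6.75% of those promoters. The EBF motif is CCCNNGGG and occurs in 11.8% of them. The GATA motif, AGATAA, is found in 9.99%. The ETS motif, AGGAAG, is found in 29.5%. The TATA motif, TATAAA, is found in 12.4%, and the kappa-B motif in 7.25%. RefSeq promoter windows were given for 5 of the 9 genes (Selp, Ackr1, Col15a1, Nr2f2 and Ebf3). AP-1 letters were found in 1 of these 5, in Selp, EBF letters in Selp and Ebf3, and ETS letters in Selp, Ackr1 and Nr2f2. GATA, TATA and kappa-B letters were found in none of the 5, which says only that they are not in these windows. The Ebf3 window is 80.0% G and C against a median of 52.4% over all promoters, and those of Selp and Col15a1 are each 53.6%.

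The 15 libraries held 15652008 to 18020661 counts, and 22100 to 23970 genes had at least 1 count. Mitochondrial genes took 2.03% to 2.15% of the counts in the day 7 libraries. Their share was 2.28%, 2.31%, 4.22% and 4.04% in day 0 replicates 1 to 4, 2.1% in day 14 replicate 1 and 3.74% to 4.14% in the other 3 day 14 libraries, and 4.01%, 3.18% and 2.66% at day 21. All 15 general endothelial genes of a fixed list were read, with a summed level of 4720 to 5550 CPM at day 0, 3210 to 4140 at day 7, 2510 to 4190 at day 14 and 3350 to 4230 at day 21. Counting intervals and floors cover counting error only, since the libraries carry no molecular identifiers.

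**Figure D1:**
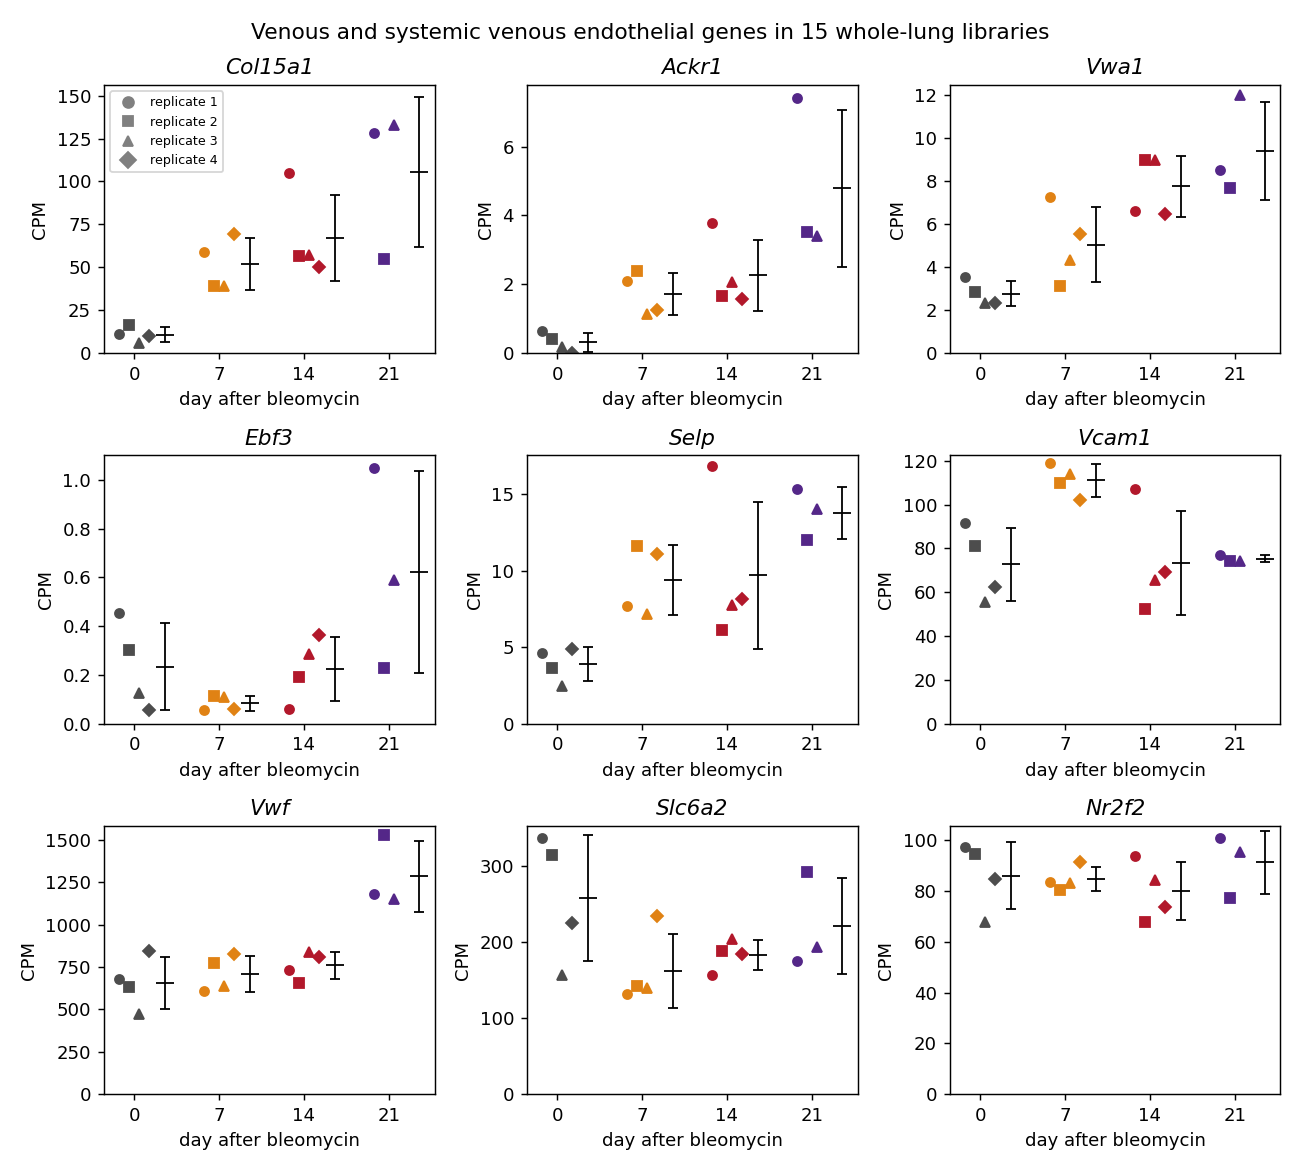
CPM (vertical axes, linear from 0) of the 9 genes in each of the 15 libraries by day after bleomycin (horizontal axes), with 1 point per library, its symbol giving the replicate number, and the mean ± SD of each day in black. Col15a1, Ackr1 and Selp are above every day 0 library in all 11 later libraries, whereas the Nr2f2 libraries of the 4 days overlap.

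Of the genes tied to matrix, Col15a1 (ENSMUSG00000028339, GRCm38 chr4:47208161-47313167, plus strand) is described first. It was read at 11.1, 16.3, 5.90 and 9.76 CPM in day 0 replicates 1 to 4 (10.8 ± 4.28, SD, n = 4). At day 7 it was at 59.0, 39.1, 39.2 and 69.6 CPM, and at day 14 at 105, 56.6, 57.1 and 50.3 CPM. At day 21 it was at 128, 55.1 and 133 CPM (105.4 ± 43.7, SD, n = 3). Every later library was above every day 0 library, while the later days overlapped each other, with replicate 1 apart from the others at day 14 and replicate 2 low at day 21. The fitted log2 fold change against day 0 was 2.26 ± 0.35 (SE) at day 7, 2.64 ± 0.35 at day 14 and 3.29 ± 0.37 at day 21, and each passed both thresholds used for all genes, an adjusted p under 0.05 in edgeR and a fold change over 1.5. None of the alternatives run took these 3 calls away. Against day 7, Col15a1 did not pass at day 21, but it did with DESeq2 (log2 fold change 1.03), with no filter on low counts (0.998), with a covariate for the mitochondrial share (1.56) and without day 21 replicate 2 (1.31).

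Vwa1 (ENSMUSG00000042116, chr4:155768149-155774698, minus strand) was read by 37 to 204 counts per library. It stood at 3.56, 2.84, 2.35 and 2.34 CPM at day 0, and at 7.25, 3.13, 4.34 and 5.53 CPM at day 7. At day 14 it was at 6.62, 8.99, 8.98 and 6.46 CPM and at day 21 at 8.53, 7.69 and 12.0 CPM. Day 14 and day 21 lay apart from day 0, while at day 7 replicate 2 fell within the day 0 range and the other 3 libraries above it. The log2 fold change was 0.87 ± 0.26 at day 7, 1.48 ± 0.26 at day 14 and 1.76 ± 0.27 at day 21, all 3 past the thresholds. The calls at days 14 and 21 held under every alternative run, whereas the day 7 call was lost when replicate 3 (0.77) or 4 (0.77) of day 0 or replicate 1 (0.62) or 4 (0.82) of day 7 was left out. Vwa1 was also higher at day 21 than at day 7, by 0.89 on the log2 scale, a call lost without any of day 7 replicates 2, 3 and 4 (0.72, 0.83 and 0.94) or day 21 replicates 1, 2 and 3 (0.94, 0.999 and 0.65). Of its 3623 exon bases, 760 are also exon of Gm26840 on the opposite strand. The sources used here do not state whether the counting used strand, so reads of the pair cannot be told apart.

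Both proteins sit in the vascular basement membrane, and 13 genes of that structure were listed beside them. Of the 13, 9 passed as higher at day 7, 10 at day 14 and 11 at day 21, and none passed as lower, where 8.78%, 12.0% and 12.4% of all genes were higher. At day 21 the network collagen chain Col4a1 rose by 1.72 (log2) (edgeR adjusted p = 6.9e-06) and its partner Col4a2 by 1.58. Col6a3, a chain of collagen VI, rose by 2.20. The median change over the list was 0.81, 0.95 and 1.19 at days 7, 14 and 21, against 0.01, 0.02 and 0.02 over all genes tested. Fibroblast markers were split: 3 of 8 were higher at each of the 3 days and 2 were lower at days 14 and 21, when 11.2% and 10.1% of all genes were lower. Col1a1, the fibrillar collagen chain, rose by 2.99 at day 21, while Pi16, a marker of adventitial fibroblasts, fell by 1.42 and Tcf21, a factor of resident fibroblasts that was named after its values were seen, fell by 1.39. The summed level of the 8 was 1370 to 1790 CPM at day 0, 3440 to 4360 at day 7, 2670 to 10300 at day 14 and 3570 to 7260 at day 21. Col1a1 and Col1a2 made up most of the later sums, so the sums do not stand for all 8. Their means were 313 and 437 CPM at day 0 and 2483 and 2408 CPM at day 21. The part of the fibroblast markers in the Col15a1 and Vwa1 levels was not tested.

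Ackr1 (ENSMUSG00000037872, chr1:173331886-173333750, minus strand) had the fewest counts at day 0 of the 8 genes that passed the filter. It was read by 10, 7, 3 and 0 counts at day 0, the last of which allows up to 3 counts or 0.167 CPM. There were 37, 43, 21 and 21 counts at day 7, 64, 26, 36 and 26 at day 14 and 120, 62 and 58 at day 21. In CPM the means were 0.315 ± 0.281 (SD, n = 4), 1.72 ± 0.618 (n = 4), 2.27 ± 1.03 (n = 4) and 4.79 ± 2.28 (n = 3). Every later library was above every day 0 library, so the gene passed the filter on low counts through the later days and had to come out higher; its calls and its place among the higher genes support nothing. The log2 fold change was 2.45 ± 0.60, 2.85 ± 0.60 and 3.92 ± 0.62 at days 7, 14 and 21, past both thresholds each time. The day 7 value was 2.02 and did not pass once the mitochondrial share was a covariate. On the same strand, 361 of its 1405 exon bases are also exon of Cadm3, which had 6 to 32 counts at day 0, 28 to 43 at day 7, 6 to 46 at day 14 and 26 to 63 at day 21, and how reads in the shared stretch were assigned is not stated.

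Ackr1 binds inflammatory chemokines of both main classes, and 10 genes for such chemokines and for the other atypical receptors were listed. Of these, 6 were higher and 2 lower at day 7, 4 and 4 at day 14, and 4 and 3 at day 21, where 8.78%, 12.0% and 12.4% of all genes were higher and 7.36%, 11.2% and 10.1% lower. The monocyte attractant Ccl2 rose by 4.90 (log2) by day 21, from 6 to 14 counts per library at day 0 to 141 to 507. Ccl7 rose by 4.18 at the same day. Ackr4, the receptor that clears homeostatic chemokines, fell by 3.14 at day 14, opposite to Ackr1.

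Selp (ENSMUSG00000026580, chr1:164115264-164150026, plus strand) was at 4.60, 3.63, 2.48 and 4.91 CPM at day 0. It was at 7.70, 11.6, 7.14 and 11.1 CPM at day 7, at 16.8, 6.12, 7.72 and 8.15 CPM at day 14 and at 15.3, 12.0 and 14.0 CPM at day 21. All 11 later libraries were above all 4 day 0 libraries, with day 14 replicate 1 the highest of its day. The log2 fold change was 1.26 ± 0.30 at day 7, 1.31 ± 0.30 at day 14 and 1.82 ± 0.32 at day 21, past both thresholds each time. The day 7 value was 0.88 and did not pass in a fit that held the mitochondrial share as a covariate, and within the libraries of high mitochondrial share (over 3.5%) the day 14 value was 0.97 and did not pass. Genes on the opposite strand, Gm16548 and Gm16587, share 438 and 186 of its 4413 exon bases.

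Vcam1 (ENSMUSG00000027962, chr3:116109949-116129688, minus strand), the ligand of the integrin of Itga4 and Itgb1, followed another course. It was at 91.7, 81.3, 55.6 and 62.5 CPM at day 0, and at 119, 110, 114 and 102 CPM at day 7. It stood at 107, 52.3, 65.4 and 69.1 CPM at day 14 and at 77.2, 74.5 and 74.4 CPM at day 21. The 4 day 7 libraries were above the 4 day 0 libraries, whereas day 14 replicate 1 alone reached the day 7 range. The log2 fold change passed the thresholds at day 7 (0.61 ± 0.19) and was 0.02 ± 0.19 at day 14 and 0.05 ± 0.20 at day 21. The day 7 value is close to a fold of 1.5 and did not pass in 11 of the 17 alternatives, among them those that left out replicate 3 (0.48) or 4 (0.52) of day 0 or replicate 1 (0.56), 2 (0.62) or 3 (0.60) of day 7. The value was 0.27 in the fit with a covariate for the mitochondrial share. From day 7 to day 14 Vcam1 did not pass, but it did without day 14 replicate 1, at -0.83.

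The Vcam1 level moved with the mitochondrial share of the library. Over the 15 libraries, after the mean of each day was taken off, its log2 CPM had a Pearson r of -0.83 with the log2 of that share, given as a description. The r was -0.58 for Nr2f2, -0.57 for Col15a1, -0.56 for Ackr1, -0.54 for Selp, -0.34 for Slc6a2, -0.16 for Vwa1 and -0.02 for Vwf. Since the day 7 libraries were uniformly low in this share and day 0 was split evenly, the day 7 comparison was also made among the libraries with under 2.5% mitochondrial counts, a choice made after these shares were seen. There Col15a1 was higher at day 7 by 1.90, Ackr1 by 1.67 and Selp by 1.17 on the log2 scale, all past the thresholds, whereas Vcam1 was at 0.35 and Vwa1 at 0.64 and did not pass, and Slc6a2 was lower, at -1.03, and passed. Among the libraries with over 3.5%, day 14 was higher than day 0 by 2.79 for Col15a1 and 1.78 for Vwa1, and Ackr1 had 3 and 0 counts in the day 0 libraries and 26 to 36 in the day 14 libraries. The plot of level against mitochondrial share shows this for 3 of the genes, and the part of the share in these differences was not tested further.

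**Figure D2:**
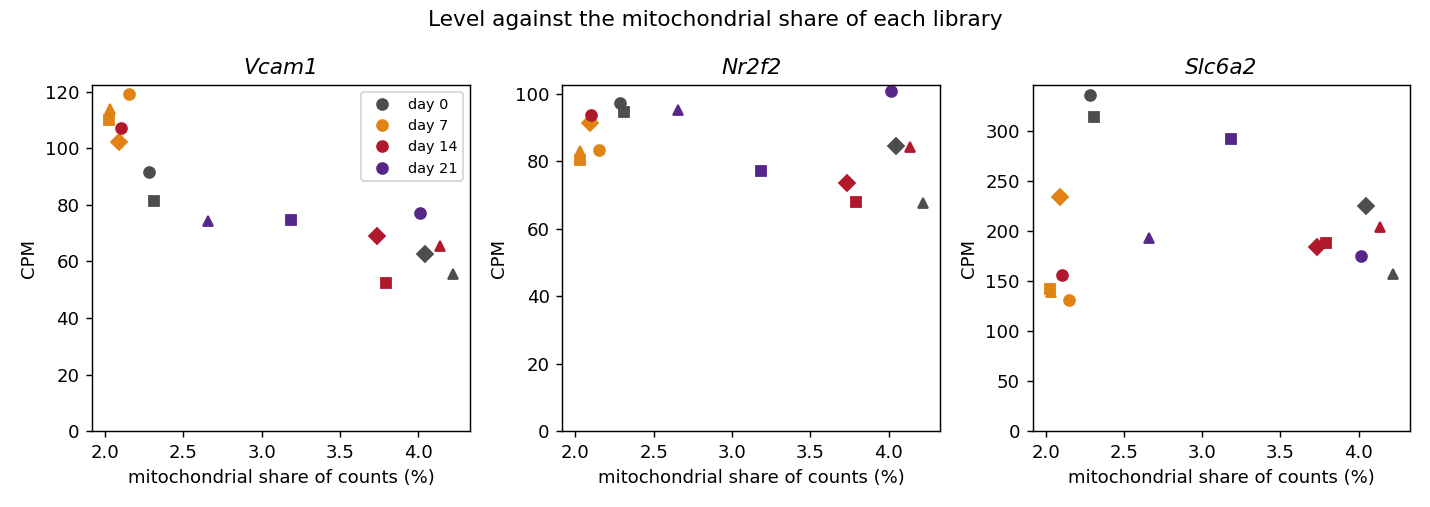
CPM (vertical axes, linear from 0) of Vcam1, Nr2f2 and Slc6a2 against the percent of counts from mitochondrial genes (horizontal axes), with 1 point per library, coloured by day and with the replicate numbers as symbols. Vcam1 is lowest, at 52.3 and 55.6 CPM, in libraries with high mitochondrial shares, and reaches 102 CPM or more in the 4 day 7 libraries and in day 14 replicate 1, whose shares are 2.03% to 2.15%.

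Among 19 other genes of leukocyte adhesion 17 could be tested, and 4 were higher and 1 lower at day 7, 5 and 4 at day 14, and 5 and 4 at day 21. Itgax, an integrin chain of macrophages and dendritic cells, rose by 1.30 (log2) at day 14. Macrophage markers were higher in 4, 6 and 4 of 7 at days 7, 14 and 21, with a summed level of 367 to 420 CPM at day 0 and 857 to 1430 CPM at day 21, and mesothelial markers in 0, 1 and 1 of 4. Of 11 genes of the NF-kappa-B pathway, which drives adhesion molecule genes in endothelium, 3 were higher and 1 lower at day 7, 2 and 2 at day 14, and 2 and 1 at day 21, where 8.78%, 12.0% and 12.4% of all genes were higher and 7.36%, 11.2% and 10.1% lower. The interleukin-1 receptor gene Il1r1 rose by 1.15 and Relb by 0.92 at day 21, while Il1b fell by 2.02.

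Vwf (ENSMUSG00000001930, chr6:125546774-125686679, plus strand) had the highest mean TPM of the 9 at every day. It was at 677, 635, 473 and 844 CPM at day 0, at 608, 776, 636 and 826 CPM at day 7 and at 731, 659, 839 and 810 CPM at day 14. At day 21 it was at 1180, 1530 and 1150 CPM (1285 ± 210.5, SD, n = 3). All 3 day 21 libraries were above the 12 earlier libraries, whereas days 0, 7 and 14 overlapped. The log2 fold change against day 0 was 0.12 ± 0.17 at day 7 and 0.21 ± 0.17 at day 14, neither past the thresholds, and 0.97 ± 0.18 at day 21, past both. Day 21 was also higher than day 7, by 0.85 on the log2 scale. The day 21 value against day 0 held without any 1 library and was lost only when the fold itself was tested against 1.5.

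Of 14 genes for storage and partners of von Willebrand factor, 1 was higher and 2 lower at day 7, 2 and 4 at day 14, and 1 and 2 at day 21. Of all genes, 8.78%, 12.0% and 12.4% were higher and 7.36%, 11.2% and 10.1% lower at those days, so that 1 or 2 calls in a list of this size are near the share of all genes. Cd63, a membrane protein of Weibel-Palade bodies and of lysosomes, rose by 1.54 (log2) at day 14. Platelet and megakaryocyte markers, which could carry Vwf and Selp transcripts, were higher in 0, 1 and 2 of 8 genes and lower in 3, 3 and 1 at days 7, 14 and 21. Their summed level was 67.3 to 134 CPM at day 0, 80.1 to 118 at day 7, 97.0 to 184 at day 14 and 152 to 186 at day 21, with no marker at 0 throughout. Within the list Ppbp fell by 2.53 at day 21 while Itgb3, also an integrin of endothelium and macrophages, rose by 1.46. Itgb3 was the largest part of the sum, with a mean of 39.5 CPM at day 0 and 109 CPM at day 21. The rise of the sum therefore does not stand for the list. Pf4, platelet factor 4, was the other gene higher at day 21 (1.15; named after its values were seen), a call lost without day 0 replicate 4 (1.05) or day 21 replicate 1 (0.57). Their part in the Vwf and Selp levels was not tested.

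Slc6a2 (ENSMUSG00000055368, chr8:92960079-93001667, plus strand) varied widely at day 0 (258 ± 82.7 CPM, SD, n = 4). It was at 336, 314, 157 and 225 CPM at day 0, at 131, 142, 139 and 234 CPM at day 7, at 156, 188, 204 and 184 CPM at day 14 and at 175, 292 and 193 CPM at day 21. At day 7, 3 of the 4 libraries were below every day 0 library and replicate 4 lay within the day 0 range. The log2 fold change was -0.68 ± 0.24 at day 7, just past the thresholds, -0.50 at day 14 and -0.23 at day 21, neither of which passed. The day 7 call was lost in 9 of the 17 alternatives, among them without day 0 replicate 1 (-0.55), 2 (-0.59) or 4 (-0.76) and without day 7 replicate 1 (-0.61), 2 (-0.62) or 3 (-0.61). At day 14 Slc6a2 passed without day 0 replicate 3, at -0.69, and among the libraries with over 3.5% mitochondrial counts its value was -0.005 and did not pass.

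Of 12 genes that make, break down or sense noradrenaline, 10 could be tested. One was higher and 1 lower at day 7, near the shares of all genes (8.78% and 7.36%), and at days 14 and 21 none was higher and 4 were lower, where 11.2% and 10.1% of all genes were lower. Maob, a monoamine oxidase, fell by 1.83 on the log2 scale at day 21, and Adra1a, an alpha-1 adrenergic receptor gene, fell by 2.74. Of 5 markers of sympathetic nerves, in which Slc6a2 is also expressed, Th was not analysed here and the other 4 had a summed level of 0.0558 to 0.302 CPM at day 0 and 1.25 to 2.35 CPM at day 21. Their part in the Slc6a2 level was not tested. Npy, the neuropeptide of these nerves, had no count in any day 0 library and 13 to 33 counts at day 21.

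Nr2f2 (ENSMUSG00000030551, chr7:70351944-70366735, minus strand) was at 97.3, 94.5, 67.8 and 84.6 CPM at day 0 and at 83.5, 80.4, 83.2 and 91.4 CPM at day 7. It was at 93.6, 67.9, 84.3 and 73.6 CPM at day 14 and at 101, 77.1 and 95.2 CPM at day 21. The 4 days overlapped, and the log2 fold changes of -0.02, -0.11 and 0.08 at days 7, 14 and 21 did not pass. The opposite-strand gene B130024G19Rik shares 643 of its 8625 exon bases.

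Of 14 genes that set venous and arterial fate, 1 was higher and 4 lower at day 7, 1 and 2 at day 14, and 2 and 0 at day 21. The higher calls, 1 or 2 at each day, are near the shares of all genes (8.78%, 12.0% and 12.4%), and 7.36%, 11.2% and 10.1% of all genes were lower. Hey1, the Notch target on the arterial side, fell by 1.02 on the log2 scale at day 7. Nrp2, the neuropilin of veins and lymphatics, rose by 0.95 at day 21.

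Ebf3 (ENSMUSG00000010476, chr7:137193673-137314445, minus strand) did not pass the filter on low counts. It was read by 7, 5, 2 and 1 counts at day 0, 1, 2, 2 and 1 at day 7, 1, 3, 5 and 6 at day 14 and 17, 4 and 10 at day 21. Day 21 overlapped day 0, so no direction against day 0 was detectable at this depth. The 3 day 21 libraries were above the 4 day 7 libraries, on 4 to 17 against 1 to 2 counts, and Ebf3 was higher at day 21 than at day 7 with DESeq2 (log2 fold change 2.87) and without the filter (2.74). Of the 4 related genes listed, 3 could be tested. Against 7.36% and 11.2% of all genes lower at days 7 and 14 and 12.4% higher at day 21, 1 of the 3 was lower at day 7, 1 was lower at day 14 and 1 was higher at day 21, the last being Zfp423, a binding partner of Ebf proteins, at 0.87 on the log2 scale.

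**Figure D3:**
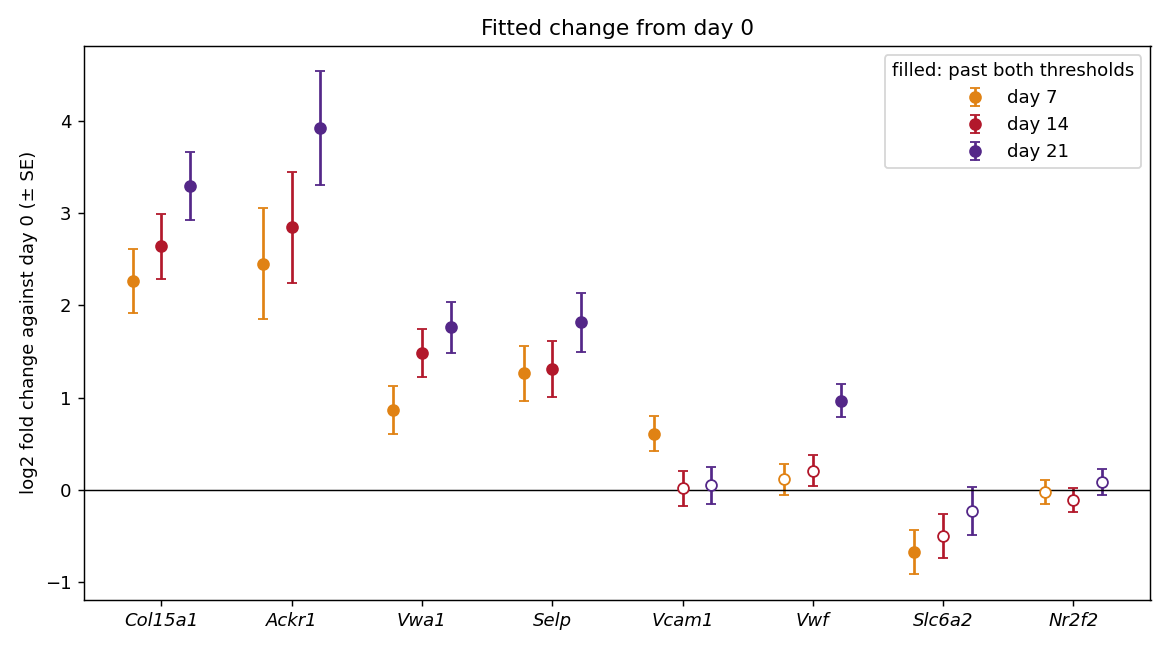
Fitted log2 fold change against day 0 (vertical axis) of the 8 genes that passed the filter, at days 7, 14 and 21, with bars of 1 SE and filled points where both thresholds were passed. Ackr1 and Col15a1 have the highest values at each day, up to 3.92 and 3.29 at day 21, and Nr2f2 lies between -0.11 and 0.08. Ackr1 was read by 0 to 10 counts at day 0 and had to come out higher, so its place supports nothing.

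Read side by side, 8 of the 9 genes passed the filter. At day 7, 5 of the 8, Ackr1 among them, were higher than at day 0 and 1 was lower, where 8.78% and 7.36% of all 17457 genes tested were higher and lower. At day 14, 4 were higher and none lower, against 12.0% and 11.2% of all genes. At day 21, 5 were higher and none lower, against 12.4% and 10.1%. The median log2 fold change of the 8 was 0.74, 0.76 and 1.36 at days 7, 14 and 21. That median counts Ackr1, which had to come out higher. With Ackr1 left out, the middle gene was Vcam1 at day 7 (0.61) and Vwf at days 14 and 21 (0.21 and 0.97). Since the genes were chosen with these values known, nothing is read from these shares, and the 3 comparisons share the day 0 libraries.

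Between the later days fewer genes passed. From day 7 to day 14 none of the 8 passed, while 2.77% of all genes were higher and 3.23% lower. DESeq2 called none of the 8. In edgeR 2 of the 8, Vcam1 and Vwa1, had an unadjusted p under 0.05, as did 4372 of all 17457 genes tested. From day 7 to day 21, 2 were higher, Vwa1 and Vwf, and none lower, where 5.20% and 4.34% of all genes were. From day 14 to day 21 none passed, as was so for 0% of all genes in either direction in edgeR. In that comparison 1714 genes had an unadjusted p under 0.05 and DESeq2 called 106, among them Vwf, the only one of the 8 under either criterion.

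Levels of different genes were set side by side as TPM, a level scaled per exon length and per library. At day 0 Vwf (105.4 TPM) and Slc6a2 (104.8 TPM) led and overlapped, followed by Nr2f2 (25.5 TPM) and Vcam1 (20.9 TPM), which overlapped, then by Col15a1 (4.37 TPM), Selp (2.28 TPM) and Vwa1 (1.94 TPM), each overlapping the next, and by Ackr1 (0.557 TPM) and Ebf3 (0.0636 TPM). At day 7 the order was Vwf (122.2 TPM), Slc6a2 (70.5 TPM), Vcam1 (34.5 TPM), Nr2f2 (27.0 TPM) and Col15a1 (22.3 TPM), with Vwf and Slc6a2 overlapping, as Nr2f2 and Col15a1 did, and then Selp (5.86 TPM), Vwa1 (3.82 TPM) and Ackr1 (3.39 TPM), each overlapping the next. At day 14 Col15a1 (30.2 TPM), Nr2f2 (26.3 TPM) and Vcam1 (23.8 TPM) overlapped behind Vwf and Slc6a2. At day 21 the order was Vwf (235.5 TPM), Slc6a2 (103.3 TPM), Col15a1 (48.8 TPM), Nr2f2 (31.1 TPM), Vcam1 (24.98 TPM), Ackr1 (9.92 TPM), Selp (9.16 TPM), Vwa1 (7.67 TPM) and Ebf3 (0.196 TPM). Col15a1 overlapped Nr2f2 there, Ackr1 overlapped Selp and Selp overlapped Vwa1, and the other neighbours lay apart. Col15a1 thus moved from below Nr2f2 and Vcam1 at days 0 and 7 to above both by mean at days 14 and 21, and Vwf no longer overlapped Slc6a2 at days 14 and 21.

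**Figure D4:**
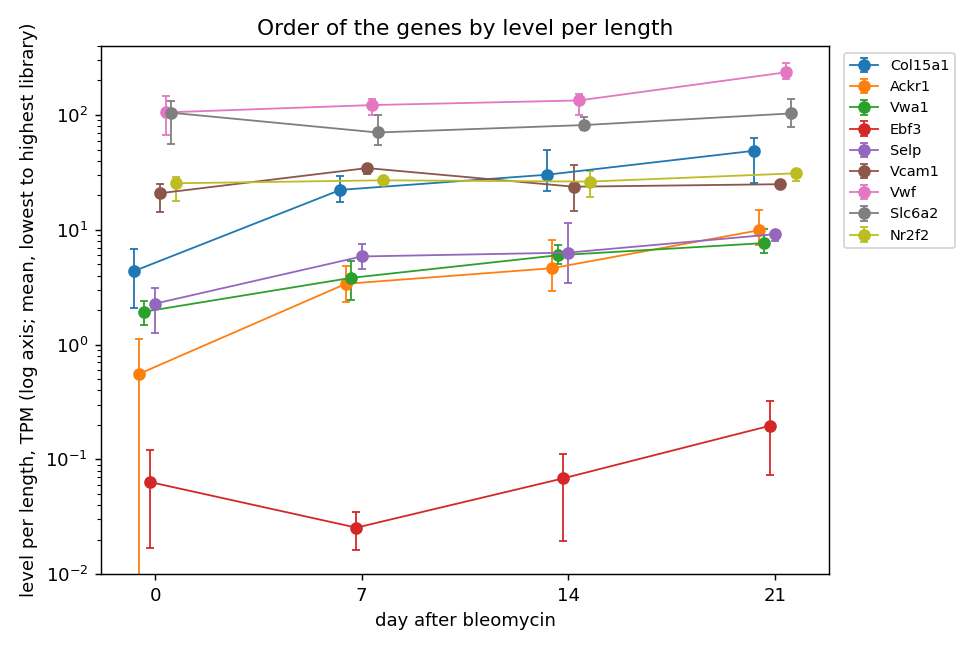
Mean TPM (log vertical axis) of the 9 genes at each day, with bars from the lowest to the highest library; the Ackr1 bar at day 0 runs to 0 and leaves the axis. Vwf is at the top at each day, and Col15a1 goes from 4.37 TPM at day 0 to 48.8 TPM at day 21 and lies above Nr2f2 and Vcam1 by mean at days 14 and 21.

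Other endothelial lists were read beside the venous genes, against 8.78%, 12.0% and 12.4% of all genes higher and 7.36%, 11.2% and 10.1% lower at days 7, 14 and 21. General endothelial genes were lower in 6, 6 and 4 of 15 at days 7, 14 and 21 and higher in none, with medians of -0.54, -0.51 and -0.44. Pecam1, the adhesion molecule of all endothelium, was lower at day 14 (-0.60, edgeR adjusted p = 0.00458), a call close to the 1.5-fold limit and lost without day 0 replicate 1 (-0.58) or day 14 replicate 1 (-0.51), with the fold tested against 1.5, and among the libraries with over 3.5% mitochondrial counts (-0.41), and it did not pass at day 7 (-0.35) or day 21 (-0.53), and the endothelial cadherin Cdh5 passed at no day (-0.36, -0.51 and -0.42). Clec14a, an endothelial surface lectin, fell by 1.39 and Ramp2, the co-receptor for adrenomedullin, by 1.03 at day 14. General capillary genes were lower in 3, 4 and 1 of 8, with Hilpda down by 1.49 at day 14. Arterial genes were higher in 1, 3 and 4 of 9 and lower in 4, 3 and 0, and at day 21 Gja5, the connexin of arterial endothelium, was higher by 1.41. Lymphatic endothelial genes were higher in 1, 4 and 6 of 8 and lower in none, with Prox1, the factor that holds lymphatic identity, higher by 1.93 and Reln by 2.23 at day 21. The medians at days 7, 14 and 21 were -0.705, -0.63 and -0.44 for the capillary list and -0.42, 0.39 and 0.58 for the arterial list. Those of the lymphatic list were -0.06, 0.55 and 1.09. The difference between these lists and the 9 venous genes was not tested.

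**Figure D5:**
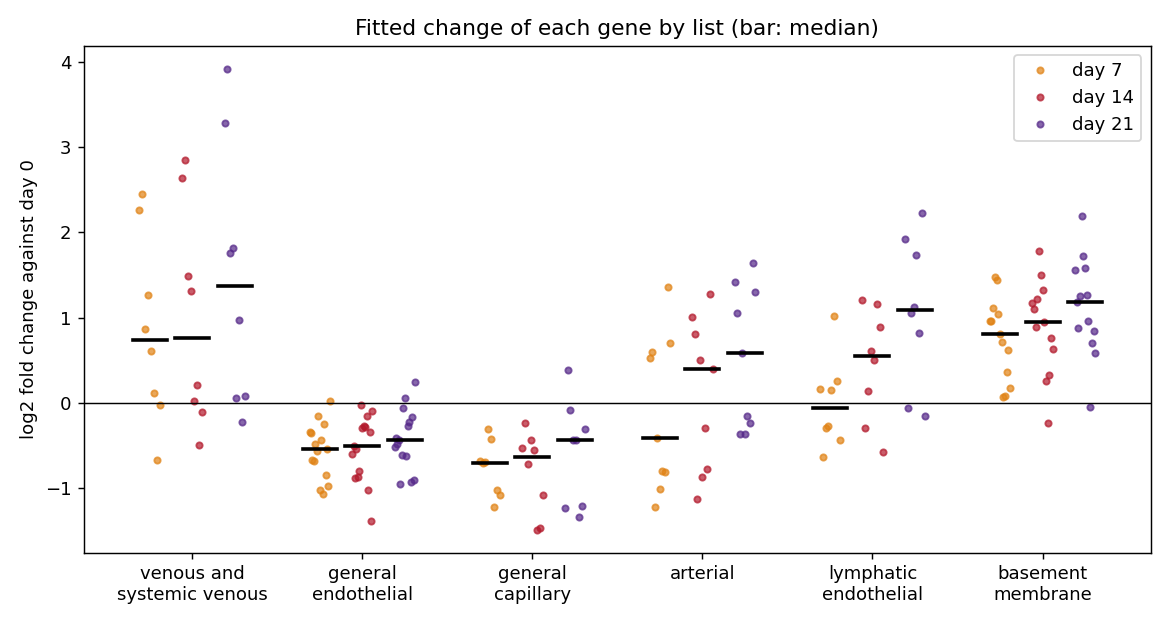
Fitted log2 fold change against day 0 (vertical axis) of each tested gene of 6 lists at days 7, 14 and 21, 1 point per gene, with the median of each list as a black bar. The median of the general endothelial list lies at -0.54, -0.51 and -0.44 and that of the general capillary list at -0.705, -0.63 and -0.44. Arterial medians are -0.42, 0.39 and 0.58, lymphatic medians -0.06, 0.55 and 1.09 and basement membrane medians 0.81, 0.95 and 1.19. The 8 venous genes, counting Ackr1, have medians of 0.74, 0.76 and 1.36. Single venous genes run from -0.23 to 3.92 (Ackr1) at day 21.

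The genes did not all vary together between libraries of the same day. Over the 28 pairs of the 8 genes, Pearson r of log2 CPM after the mean of each day was taken off ran from -0.29 (Ackr1 and Vwf) to 0.86 (Col15a1 and Nr2f2), with a median of 0.29 and 24 pairs above 0. All pairs share the 15 libraries and their depths and mitochondrial shares. Nr2f2 also varied with Vcam1 (0.73) and Selp (0.71), Selp with Vcam1 (0.68), Ackr1 with Vcam1 (0.66) and Vwf with Slc6a2 (0.63).

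Among 15345 genes with a mean of at least 1 CPM, those most like each of the 8 in this measure over the 15 libraries were as follows. Trim47 (0.93), Cfap77 (0.92) and Rnf128 (0.90) were most like Col15a1, and Cfap77 (0.92) and Creb3l1 (0.91) were among those most like Nr2f2. Adamts12 (0.94), Sec22c (0.90) and Ptk7 (0.90) were most like Selp, and Dhx9 (0.93), Ldlrad3 (0.92) and Tm9sf2 (0.91) most like Vcam1. Dctn1 (0.96), Cntn1 (0.94) and Nrd1 (0.93) came first for Vwf, Tspan9 (0.91), Epb41 (0.90) and Pik3ca (0.90) for Slc6a2, Mesd (0.92), Poll (0.89) and Prr13 (0.87) for Vwa1, and Rgs18 (0.90), Usp1 (0.89) and Pla2g7 (0.89) for Ackr1. Cfap77 was named for both Col15a1 and Nr2f2, the pair with the highest r among the 28.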

How the data were processed

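PolyA-selected RNA from whole mouse lungs was sequenced after preparation with the NEBNext Ultra kit. According to the study and the submitters' notes, the authors aligned trimmed reads to mm10 with HISAT2 (2.1.0), left out reads mapping to several places and counted reads per gene with HTSeq (0.6.0). The annotation release and the strand setting are not given in the sources used here. The deposited values are raw counts per Ensembl gene, with no normalization.

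The members and gene lists were chosen with earlier results of these data known, so no p-value is printed for the members, and their passing the thresholds is a description. Of 33340 gene IDs, 33267 matched GENCODE M21, and the other 73 held 0.00889% of counts. Counts were tested with edgeR (4.0.16) by the quasi-likelihood test in 1 fit over all 15 libraries, with TMM factors, filterByExpr (17457 genes) and Benjamini-Hochberg adjustment over all genes tested. A gene passed at an adjusted p under 0.05 together with a fold change beyond 1.5. CPM were scaled by TMM. TPM used the exon lengths of M21. Lists were described by counts and medians. Listed genes are named by rule, up to 3 per list by size of change among those past the thresholds against day 0, and similar genes by the 3 highest correlations per member; some genes these rules name are not reported here. Listed genes that lost their call under some alternative, in the comparison where their change was largest, are not named, except Zfp423, which lost it only under glmTreat, Pecam1, named in every case, and Pf4, named after its values were seen. The scaling, filter, tool (DESeq2 1.42.0), threshold, fit, replicate block, mitochondrial share and each library were varied. On simulated counts for day 14 against day 0 (17191 genes), 72% of 2-fold and 100% of 4-fold changes were recovered with 9 false calls.

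Depth was 15652008 to 18020661 counts per library. No 2 libraries of a group agreed within sampling noise. The series' design text gives a different number of replicates per day from the sample titles, which were followed. Promoter sequences are from RefSeq (GRCm38.p6), and member positions from M21 (GRCm38).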

Additional observations from a re-analysis of the deposited data

Results flagged for a closer look

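In 2 of the 27 sets of 4 libraries formed by the 9 genes at days 0, 7 and 14, 1 library stood further from the others than Dixon's limit allows, where chance flags about 5% of sets. Col15a1 was at 105 CPM in day 14 replicate 1 and at 50.3 to 57.1 CPM in the other 3 day 14 libraries. Leaving out each library in turn gave log2 fold changes of 2.32 to 2.89 for Col15a1 at day 14, all past the thresholds. Slc6a2 was at 234 CPM in day 7 replicate 4 and at 131 to 142 CPM in the other 3, and leaving out each library gave -0.91 to -0.55 at day 7. Day 14 replicate 1 also had the highest Selp, Ackr1, Vcam1 and Nr2f2 CPM of its day and a mitochondrial share of 2.1%, against 3.74% to 4.14% in the other day 14 libraries.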

How the results depend on the processing

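At day 7, 6 of the 8 tested venous genes had passed the thresholds, but 1 (Col15a1) passed with the mitochondrial share as a covariate, 2 passed when the fold was tested against 1.5 with glmTreat, and 3 to 5 passed with each library left out in turn. Over all genes the count at day 7 was 2818, against 1269 with the covariate, 703 with glmTreat and 3245 with DESeq2. The count was 3 without day 0 replicate 4 or without day 7 replicate 1. At day 14, 4 passed and leaving out libraries gave 4 to 5. At day 21, 5 passed and did so without each library. Over all genes 4040 passed at day 14 and 3924 at day 21, with 3406 to 4115 and 3349 to 3822 without each library. From day 7 to day 14 none passed, 1 (Vcam1) passed with no filter on low counts, and 0 to 1 passed without each library. Over all genes 1048 passed there, against 1283 with no filter and 340 to 1300 without each library. From day 7 to day 21, 2 passed, against 5 with DESeq2, 4 with no filter, 0 with glmTreat and 1 to 3 without each library. Ebf3 was among those that passed with DESeq2 and with no filter. Over all genes 1665 passed there, against 176 with glmTreat and 966 to 1822 without each library. With DESeq2 2250 and with no filter 1851 of 32890 genes did. From day 14 to day 21 none passed and 1 (Vwf) did with DESeq2, where over all genes none passed in edgeR and 106 did with DESeq2.

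Whether replicate numbers pair the libraries was not settled. Of 21 same-numbered pairs, 8 correlated over 0.1 (-0.244 to 0.397), and differently numbered pairs were not set beside them. With the replicate block, 5 venous genes passed at day 7 (Slc6a2 was lost), 4 at day 14, 5 at day 21, 1 from day 7 to day 14 (Vcam1, -0.63), and 2 from day 7 to day 21, where Vcam1 (-0.60) passed and Vwa1 did not. Over all genes 2915, 4113 and 3752 passed with the block at days 7, 14 and 21. It gave 1184 from day 7 to day 14 and 1651 from day 7 to day 21.

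Of the 170 other listed genes tested, 61, 84 and 76 passed at days 7, 14 and 21, where 2818, 4040 and 3924 of all 17457 genes did. With glmTreat 17, 42 and 50 passed, against 703, 1755 and 1754 of all genes. With the covariate 35 passed at day 7, against 1269 of all genes. Leaving out each library gave 49 to 59, 77 to 88 and 67 to 81. Of 55 listed genes named by rule, 16 lost their call under some alternative, 12 of them without some library. No value past the thresholds changed sign. Of the 48 fold changes of the 8 genes in the 6 comparisons, 9 that did not pass (main values within 0.268 of 0) took both signs over the alternatives, among them Vwf at day 7 (-0.038 to 0.239) and Vcam1 at day 14 (-0.244 to 0.129). Counts limit Ackr1 at day 0 (0 to 10) and Ebf3 (1 to 17).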

Other observations

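Marker lists of other cells in the lung were read beside the venous genes, against 8.78%, 12.0% and 12.4% of all genes higher and 7.36%, 11.2% and 10.1% lower at days 7, 14 and 21. Pericyte and smooth muscle genes were higher in 2, 2 and 3 of 8 at days 7, 14 and 21 and lower in none, and Pdgfrb, the receptor that recruits pericytes to vessels, rose by 1.15 (log2) by day 21. Erythroid genes, of which 3 of 5 could be tested, were lower in 0, 1 and 2 and higher in none. Of 4 genes of nerve glia 3 could be tested, none passed at day 7, 1 was lower at day 14 and 1 was higher at day 21. Of 6 cartilage genes only Hapln1, which links hyaluronan to proteoglycans, could be tested, and it was higher at days 14 and 21, by 3.07 and 3.18, from 6 to 11 counts per library at day 0 to 69 to 117 at day 21. Of 4 mesothelial genes, Msln was higher at day 14, by 2.28.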
